A study of Caenorhabditis elegans with 16 samples.

Results

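Argonautes are the proteins that hold a small RNA and use it to find a matching transcript. The 10 genes described here, alg-1, alg-2, alg-3, alg-4, ergo-1, csr-1, prg-1, wago-1, hrde-1 and rde-1, were chosen by name to span the Argonautes of the worm soma, sperm line, oocyte and germline. All 10 were found by gene symbol among the 46589 genes of the deposited table, and all 10 passed the filter on low values in every comparison. RNA with a poly(A) tail was sequenced from whole N2 worms, the wild-type strain, in 4 groups with 4 libraries each. In EMBRYO TM, embryos freed by bleaching were kept with tunicamycin (TM) at 1.25 µg/ml in S Medium for 24 h at 20 °C. EMBRYO CNT was the control for that stage. In L4 TM, worms at the last larval stage received the same dose for the same time, and L4 CNT was its control. By the protocol in the labels, the worms of both stages were then moved to NGM plates until they were adult. They are described as Day 1 adults when collected, and for L4 TM the treatment itself is also described as running up to that age. Tunicamycin blocks N-linked glycosylation and so stresses the endoplasmic reticulum. Each library came from the worms of 1 plate, and whether the plates of a group were started on separate days is not given, so p-values measure the spread between plates. The EMBRYO and L4 groups may also differ in how long they grew after the treatment, which cannot be told apart from its stage. Columns of group means in the deposited table are headed L1 and D1 in place of embryo and L4, and the groups here follow the labels.

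Worm Argonautes fall into classes by the RNA they carry. ALG-1 and ALG-2 carry microRNAs and repress messenger RNAs in nearly all tissues. ALG-3, ALG-4 and ERGO-1 carry 26G RNAs, the first pair in developing sperm and ERGO-1 in oocytes and embryos. PRG-1, the Piwi protein, carries the piRNAs of the germline, and RDE-1 carries the RNAs made from double-stranded RNA that enters a cell. These primary Argonautes start the making of 22G RNAs, which CSR-1, WAGO-1 and the nuclear protein HRDE-1 carry in the germline. Hermaphrodites make sperm late in larval life and oocytes as adults, so the makeup of the gonad changes with age. In RNA from whole worms, fewer cells of a type and less RNA per cell cannot be told apart.

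The libraries held between 12361026 and 47193068 reads on genes. FPKM counts fragments per kilobase of gene and is scaled by a size for each library, so levels can be compared between genes. That size was 1.07 to 1.18 times the reads on genes in EMBRYO CNT. In EMBRYO TM it was 0.906 to 0.998 times in replicates 1 to 3 and 1.17 times in replicate 4. In L4 CNT it was 0.945 to 1.03 times and in L4 TM 0.918 to 0.996 times. Levels compared between libraries depend on this size, which the TPM and median-ratio rescalings used below replace. EMBRYO TM replicate 4 and L4 TM replicate 4 stood apart from their groups, with a correlation of 0.967 and 0.973 with the mean of the other 3 libraries, against 0.981 to 0.995 for the other 14. In L4 TM replicate 4, the deepest library, genes seen by exactly 1 read made up 0.702% of those detected, and 8.97% to 10.9% in the other libraries. EMBRYO TM replicate 4 was the lowest of its group for 9 of the 10 Argonautes, all but rde-1, for which it was the highest. EMBRYO CNT replicate 1 was the highest of its group for all 10. Counts of the 10 genes are therefore given with and without EMBRYO TM replicate 4 or L4 TM replicate 4. L4 CNT replicate 2, the shallowest library, was the highest of its group for alg-1, csr-1, hrde-1 and rde-1 and the lowest for alg-2, alg-4, prg-1 and wago-1.

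TM from the embryo stage left most Argonaute transcripts higher in the adults. Compared with EMBRYO CNT, 7 of the 10 rose in EMBRYO TM and 0 fell: alg-3, alg-4, csr-1, prg-1, wago-1, hrde-1 and rde-1 (limma on log2 of FPKM + 1, adjusted p under 0.05). Of all 14930 genes tested, 25.7% rose and 27% fell, 52.7% in all. The sperm Argonautes alg-3 and alg-4 and the germline Argonaute csr-1 changed most, with 2.51, 2.23 and 2.02 times the mean FPKM of EMBRYO CNT. Only alg-3 and alg-4 also passed the study's fold threshold, a log2 fold change beyond 1, which 5.06% of all genes passed upwards and 7.61% downwards. The median log2 fold change of the 10 was 0.64, beside -0.03 over all genes. The 2 groups did not overlap for alg-1, alg-3, alg-4, csr-1, prg-1, wago-1 and rde-1, beside 48.5% of all genes. Without EMBRYO TM replicate 4, 8 genes rose, 1 fell and 3 passed both thresholds.

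TM from L4 also left Argonaute transcripts higher, and the sperm pair did not pass the test there. The microRNA pair passed it in neither TM comparison. Compared with L4 CNT, ergo-1, csr-1, prg-1, wago-1, hrde-1 and rde-1 rose in L4 TM, 6 of the 10, and 0 fell, beside 20.3% of all 11964 genes tested that rose and 15.8% that fell. The largest change was that of hrde-1, at 1.65 times the mean FPKM of L4 CNT. None of the 10 passed the fold threshold as well, beside 0.585% of all genes upwards and 3.2% downwards, or 3.79% in either direction. The median log2 fold change of the 10 was 0.38, beside 0.05 over all genes, and all 10 values were above 0. The groups did not overlap for ergo-1, csr-1, prg-1, wago-1 and hrde-1, beside 36.8% of all genes. Without L4 TM replicate 4, 7 of the 10 rose and again none passed both thresholds.

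The 2 effects of TM differed for 4 of the 10 genes in a test of the difference itself, the EMBRYO effect minus the L4 effect. It was positive for alg-3, alg-4 and csr-1 and negative for alg-1, beside 14.8% of all 13856 genes tested with a positive call and 14.4% with a negative one, 29.2% in all. None of the 10 also passed the fold threshold, beside 6.5% and 4.22% of all genes, with alg-3 and alg-4 just inside it. That count was 1 or 2 without EMBRYO CNT replicate 1 or 4, EMBRYO TM replicate 4, L4 CNT replicate 1, 2 or 3, or L4 TM replicate 1, 2 or 4. Without EMBRYO TM replicate 4 there were 5 calls, with prg-1 added at 0.51 (adjusted p = 0.0176), and 2 past both thresholds, alg-3 and alg-4. Without L4 TM replicate 4 there were 3 calls, with alg-1 lost at -0.61 (adjusted p = 0.0578), and alg-3 was past both thresholds at 1.11. The 5 genes that rose in both comparisons were csr-1, prg-1, wago-1, hrde-1 and rde-1.

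**Figure D1:**
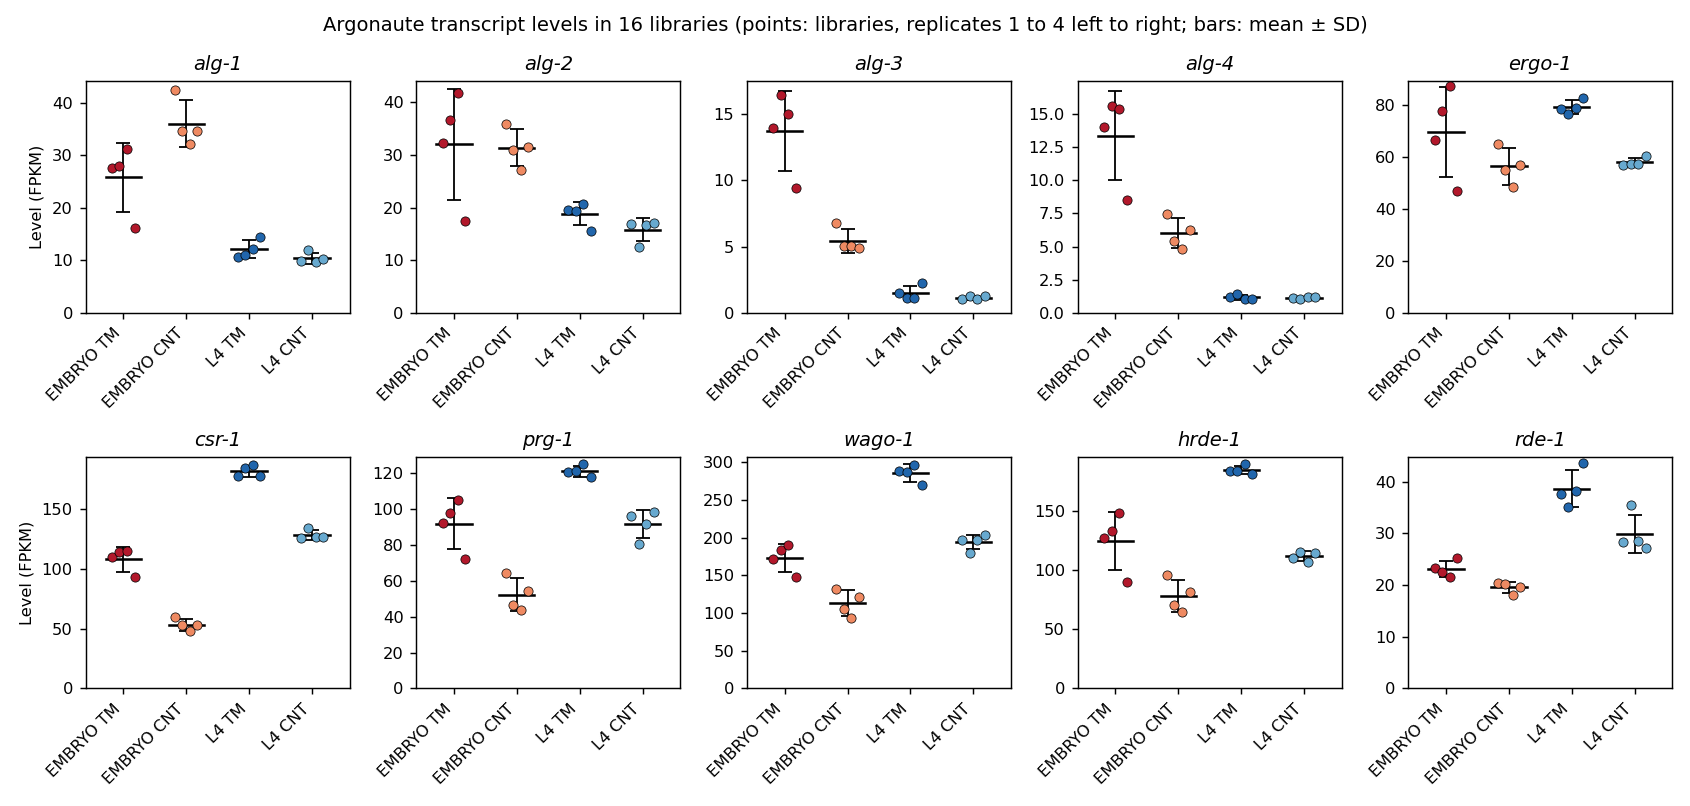
FPKM of the 10 Argonaute genes in the 16 libraries. Points are libraries, with replicates 1 to 4 from left to right, and bars are the mean and SD of 4 libraries. The EMBRYO TM points of alg-3 and alg-4, at 8.48 FPKM or more, lie above all EMBRYO CNT points, and the L4 points of both genes stay below 2.3 FPKM.

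**Figure D2:**
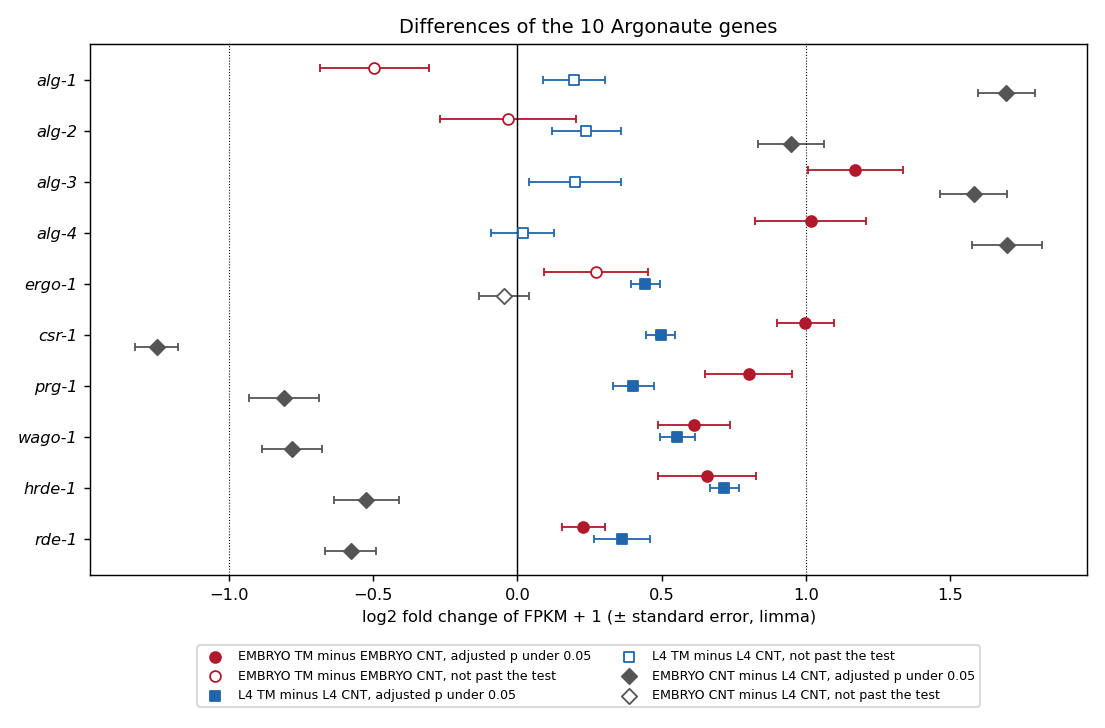
Log2 fold changes of FPKM + 1 with their standard errors from limma, for EMBRYO TM minus EMBRYO CNT (circles), L4 TM minus L4 CNT (squares) and EMBRYO CNT minus L4 CNT (diamonds). Filled symbols passed an adjusted p of 0.05, and dotted lines mark log2 fold changes of -1 and 1. The 2 TM effects lie close together for wago-1 (0.61 and 0.55) and hrde-1 (0.66 and 0.72) and apart for alg-3 (1.17 and 0.20).

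The microRNA Argonaute alg-1 was the only one of the 10 whose EMBRYO TM libraries all lay below the EMBRYO CNT libraries. Its levels were 27.7, 28.05, 31.3 and 16.2 FPKM in EMBRYO TM replicates 1 to 4, against 42.5, 34.6, 32.2 and 34.7 FPKM in EMBRYO CNT. In the L4 groups, alg-1 had 10.7, 10.96, 12.2 and 14.5 FPKM in L4 TM, against 9.83, 11.9, 9.63 and 10.2 FPKM in L4 CNT. The first pair of groups did not overlap, and the second did. The log2 fold change in EMBRYO was -0.50 ± 0.19 (SE), which missed the threshold (adjusted p = 0.0516), and that in L4 was 0.20 ± 0.11 (adjusted p = 0.197). The EMBRYO value passed with a pseudocount of 5, a filter of 5 FPKM, TPM rescaling, voom, all 16 libraries in one model or protein-coding genes alone (adjusted p 0.0169 to 0.0493), and without EMBRYO TM replicate 3 (-0.60, adjusted p = 0.0324) or replicate 4 (-0.30, adjusted p = 0.0307). The difference between the effects, -0.69 ± 0.23, was called (adjusted p = 0.0327). That call was lost without EMBRYO CNT replicate 1, L4 CNT replicate 1, 3 or 4, or L4 TM replicate 3 or 4 (adjusted p 0.0532 to 0.0683).

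Its near copy alg-2 differed little within either stage. It had 32.3, 36.7, 41.8 and 17.4 FPKM in EMBRYO TM, against 35.8, 30.996, 27.2 and 31.5 FPKM in EMBRYO CNT. In L4 TM it had 19.5, 19.4, 20.6 and 15.6 FPKM, against 16.9, 12.6, 16.7 and 17.1 FPKM in L4 CNT. Both pairs of groups overlapped, and EMBRYO TM replicate 4 held the lowest alg-2 value of its group by a wide gap. On the log2 scale the change was -0.03 ± 0.24 in EMBRYO (adjusted p = 0.922) and 0.24 ± 0.12 in L4 (adjusted p = 0.159). The EMBRYO value was 0.23 without EMBRYO TM replicate 4 (adjusted p = 0.111), and the L4 value was called without L4 TM replicate 4 (0.32, adjusted p = 0.0403). The ratio of alg-1 to alg-2 was 0.825 ± 0.0857 in EMBRYO TM and 1.15 ± 0.0438 in EMBRYO CNT, without overlap, and 0.658 ± 0.182 in L4 TM and 0.676 ± 0.182 in L4 CNT (SD, n = 4). Both genes are similar in sequence, and the sources used here do not say how reads that fit both were counted, so the split between them is uncertain.

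The sperm Argonautes alg-3 and alg-4 both rose in EMBRYO TM and did not pass the test in L4 TM. They act redundantly in spermatogenesis, where their 26G RNAs support the expression of sperm genes. The levels of alg-3 were 13.9, 16.4, 15.0 and 9.44 FPKM in EMBRYO TM, against 6.81, 5.07, 5.03 and 4.91 FPKM in EMBRYO CNT. Those of alg-4 were 14.007, 15.6, 15.4 and 8.48 FPKM in EMBRYO TM, against 7.47, 5.43, 4.83 and 6.28 FPKM in EMBRYO CNT. Every EMBRYO TM library exceeded every EMBRYO CNT library for both genes, with replicate 4 nearest to the controls. The log2 fold change was 1.17 ± 0.17 for alg-3 (adjusted p = 4.13e-04) and 1.02 ± 0.19 for alg-4 (adjusted p = 0.00213). The call for alg-4 held in all 8 fits with 1 library left out, but its value fell to between 0.93 and 0.98, inside the fold threshold, without EMBRYO CNT replicate 2 or 3 or EMBRYO TM replicate 1, 2 or 3, and to 0.98 with TPM rescaling.

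In the L4 groups both sperm Argonautes were near the filter of 1 FPKM. The alg-3 levels were 1.48, 1.13, 1.12 and 2.25 FPKM in L4 TM, against 1.006, 1.26, 1.02 and 1.28 FPKM in L4 CNT. The alg-4 levels were 1.18, 1.399, 1.06 and 1.03 FPKM in L4 TM, against 1.13, 1.04, 1.21 and 1.17 FPKM in L4 CNT. The groups overlapped for both genes, and these levels rested on 63 to 343 reads for alg-3 in L4 TM and 52 to 83 in L4 CNT. The highest alg-3 value was in L4 TM replicate 4, the library that stood apart. The log2 fold changes were 0.20 ± 0.16 (adjusted p = 0.371) and 0.02 ± 0.11 (adjusted p = 0.918). The effects differed between the stages by 0.97 ± 0.23 for alg-3 (adjusted p = 0.00487) and by 1.00 ± 0.22 for alg-4 (adjusted p = 0.00309). With voom on the recovered reads the alg-3 difference was 0.85 and missed the threshold (adjusted p = 0.0776).

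Markers of the sperm line rose with alg-3 and alg-4 in EMBRYO TM. Of 43 sperm line genes tested from a list of 47, 35 rose and 3 fell, beside 25.7% and 27% of all genes. Both thresholds were passed by 28 of the risers, beside 5.06% of all genes, and the median log2 fold change of the list was 1.504. Most of the 47 are major sperm protein (msp) genes, a family of similar copies. How reads that fit several copies were counted is not given, so these counts may repeat a shared signal. The genes with the largest changes were the major sperm protein genes msp-45 (2.08), msp-49 (2.04) and msp-65 (1.99), which code for the cytoskeletal protein whose filaments drive the crawling of sperm. Their summed level was 2410 to 2722 FPKM in EMBRYO TM and 813 to 918 FPKM in EMBRYO CNT, and 688 to 864 FPKM in L4 TM and 647 to 756 FPKM in L4 CNT. Of 36 tested in L4 TM, 2 rose (spe-39 and spe-44) and 1 fell (spe-11), beside 20.3% and 15.8% of all genes. The median of the 36 was 0.07, and with TPM rescaling none rose. As a share of the summed sperm markers, alg-3 was 0.519 ± 0.0926% in EMBRYO TM and 0.634 ± 0.0964% in EMBRYO CNT (SD, n = 4), and alg-4 was 0.505 ± 0.105% and 0.695 ± 0.106% in the same groups. The groups overlapped for alg-3 and did not for alg-4, which was lower relative to these markers in EMBRYO TM. In the L4 groups the shares were 0.197 ± 0.0504% in L4 TM and 0.162 ± 0.0292% in L4 CNT for alg-3. None of the 47 markers was at 0 in all libraries of a group. The part of the sperm line in the rise of both genes was not tested.

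**Figure D3:**
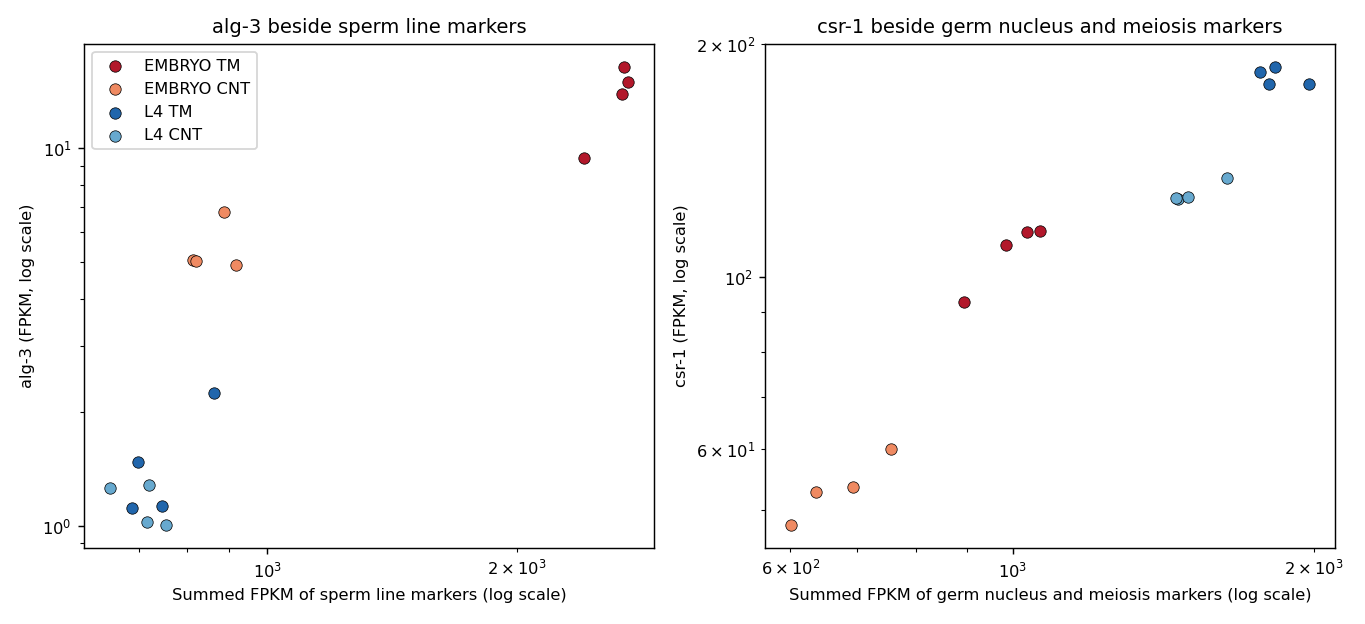
Left, alg-3 FPKM against the summed FPKM of 47 sperm line markers, and right, csr-1 FPKM against that of 22 germ nucleus and meiosis markers, on log axes. Each point is 1 of the 16 libraries, and the colours are the 4 groups. The 4 EMBRYO TM libraries lie alone at 2410 FPKM or more of sperm markers, and the germ nucleus markers span 1767 to 1976 FPKM in L4 TM and 601 to 757 FPKM in EMBRYO CNT, the groups with the highest and the lowest csr-1.

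ergo-1, the 26G Argonaute of oocytes and embryos, rose in L4 TM and did not pass the test in EMBRYO TM. It had 66.3, 77.6, 87.1 and 47.0 FPKM in EMBRYO TM, against 65.1, 54.8, 48.2 and 56.9 FPKM in EMBRYO CNT. The L4 TM libraries had 78.5, 76.3, 78.8 and 82.7 FPKM, against 56.95, 57.4, 57.01 and 60.2 FPKM in L4 CNT. The EMBRYO groups overlapped through replicate 4, and the L4 groups were apart by more than their whole ranges. On the log2 scale the change was 0.27 ± 0.18 in EMBRYO (adjusted p = 0.232) and 0.44 ± 0.05 in L4 (adjusted p = 3.43e-04). Without EMBRYO TM replicate 4 the EMBRYO value was 0.45 and passed (adjusted p = 0.0118). The 2 effects were not shown to differ (-0.17 ± 0.20, adjusted p = 0.576).

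Oocyte and eggshell markers were read beside ergo-1. Of 23 such genes, 7 rose and 0 fell in EMBRYO TM, beside 25.7% of all genes that rose there, and 19 rose without EMBRYO TM replicate 4. In L4 TM 20 rose and 0 fell, beside 20.3% of all genes that rose. Their summed level was 3561 to 6259 FPKM in EMBRYO TM and 3358 to 4532 FPKM in EMBRYO CNT, and 7080 to 7573 FPKM in L4 TM and 5618 to 6144 FPKM in L4 CNT. As a share of that sum, ergo-1 was 1.38 ± 0.0425% in EMBRYO TM and 1.44 ± 0.0281% in EMBRYO CNT, without overlap, and 1.08 ± 0.0597% in L4 TM and 0.972 ± 0.0366% in L4 CNT (SD, n = 4), without overlap. Beside the sum of the germ nucleus markers described below, ergo-1 was 6.92 ± 1.26% in EMBRYO TM and 8.36 ± 0.294% in EMBRYO CNT, with overlap. In the L4 groups that share was 4.29 ± 0.0724% in L4 TM and 3.83 ± 0.225% in L4 CNT, without overlap. No oocyte marker was at 0, and the part of the oocytes in the rise of ergo-1 was not tested.

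csr-1, whose protein carries 22G RNAs against the genes the germline expresses and is essential for fertility, rose at both stages and more in EMBRYO. It had 109.9, 114, 115 and 92.9 FPKM in EMBRYO TM, against 60.0, 52.8, 47.8 and 53.5 FPKM in EMBRYO CNT. In L4 TM it had 178, 184, 187 and 178 FPKM, against 126, 134, 127 and 127 FPKM in L4 CNT. Neither pair of groups overlapped. The log2 fold change was 1.00 ± 0.10 in EMBRYO, just under the fold threshold (adjusted p = 5.19e-05), and 0.50 ± 0.05 in L4 (adjusted p = 1.93e-04). The EMBRYO effect exceeded the L4 effect by 0.50 ± 0.11 (adjusted p = 0.00305), and that call held in all 16 fits with 1 library left out, with values of 0.45 to 0.57. The gene makes a long and a short isoform, which gene-level FPKM does not separate.

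Germ nucleus and meiosis markers, genes such as gld-1 of the meiotic germline, were read beside csr-1. Of 22 such genes, 15 rose and 0 fell in EMBRYO TM, beside 25.7% and 27% of all genes. Their median log2 fold change was 0.36. Only gld-1, at 1.00, passed both thresholds, beside 5.06% of all genes upwards, and it did not with TPM rescaling. In L4 TM 10 rose and 0 fell, beside 20.3% and 15.8% of all genes, with a median of 0.25. Their summed level was 894 to 1064 FPKM in EMBRYO TM and 601 to 757 FPKM in EMBRYO CNT, and 1767 to 1976 FPKM in L4 TM and 1457 to 1636 FPKM in L4 CNT. As a share of that sum, csr-1 was 10.9 ± 0.343% in EMBRYO TM and 7.97 ± 0.235% in EMBRYO CNT, and 9.87 ± 0.632% in L4 TM and 8.495 ± 0.219% in L4 CNT (SD, n = 4). Neither pair overlapped, so csr-1 was higher relative to these markers under TM at both stages. None of the 22 markers was at 0.

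prg-1, the Piwi protein that carries piRNAs against foreign sequence, rose in both comparisons. It had 92.3, 97.9, 105 and 72.2 FPKM in EMBRYO TM, against 64.6, 46.4, 43.9 and 54.5 FPKM in EMBRYO CNT. The L4 TM libraries had 121, 122, 125 and 118 FPKM, against 96.3, 80.8, 91.6 and 98.7 FPKM in L4 CNT. Neither pair of groups overlapped. On the log2 scale the change was 0.80 ± 0.15 in EMBRYO (adjusted p = 0.00201) and 0.40 ± 0.07 in L4 (adjusted p = 0.00292). The difference of 0.40 ± 0.17 missed the threshold (adjusted p = 0.101) and passed without EMBRYO CNT replicate 1 (0.50, adjusted p = 0.0286) or EMBRYO TM replicate 4 (0.51, adjusted p = 0.0176). As a share of the germ nucleus marker sum, prg-1 was 9.20 ± 0.785% in EMBRYO TM and 7.75 ± 0.588% in EMBRYO CNT, and 6.60 ± 0.432% in L4 TM and 6.10 ± 0.788% in L4 CNT, with overlap at both stages (SD, n = 4). As a share of the oocyte marker sum, prg-1 was 1.86 ± 0.161% in EMBRYO TM and 1.34 ± 0.0723% in EMBRYO CNT. In the L4 groups that share was 1.66 ± 0.00624% in L4 TM and 1.54 ± 0.0757% in L4 CNT. Neither pair overlapped, so the reading depends on the markers used.

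wago-1, the most abundant of the 10 in every group, rose to a like degree at both stages. Its protein sits in germ granules and silences transcripts with 22G RNAs. It had 172, 183, 190.1 and 148 FPKM in EMBRYO TM, against 132, 106, 93.8 and 122 FPKM in EMBRYO CNT. In L4 TM it had 289, 287, 297 and 269.9 FPKM, against 197, 180.4, 197 and 203 FPKM in L4 CNT. Neither pair of groups overlapped. The log2 fold change was 0.61 ± 0.12 in EMBRYO (adjusted p = 0.00310) and 0.55 ± 0.06 in L4 (adjusted p = 2.90e-04), with a difference of 0.06 ± 0.14 that did not pass (adjusted p = 0.811). As a share of the germ nucleus marker sum, wago-1 was 17.4 ± 0.598% in EMBRYO TM and 16.8 ± 0.911% in EMBRYO CNT, with overlap, and 15.6 ± 1.27% in L4 TM and 12.9 ± 1.25% in L4 CNT, without overlap (SD, n = 4).

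hrde-1, the nuclear Argonaute of silencing that is passed to the offspring, showed the largest change of the 10 in L4 TM. It had 128, 133, 148 and 90.5 FPKM in EMBRYO TM, against 96.5, 70.5, 65.03 and 81.4 FPKM in EMBRYO CNT. The L4 TM libraries had 184, 184, 189.9 and 181 FPKM, against 110.4, 116, 107 and 115 FPKM in L4 CNT. The EMBRYO groups overlapped, since EMBRYO TM replicate 4 lay below EMBRYO CNT replicate 1, and the L4 groups did not. On the log2 scale the change was 0.66 ± 0.17 in EMBRYO (adjusted p = 0.0105) and 0.72 ± 0.05 in L4 (adjusted p = 2.97e-05). The 2 effects were not shown to differ (-0.06 ± 0.19, adjusted p = 0.855). As a share of the germ nucleus marker sum, hrde-1 was 12.5 ± 1.64% in EMBRYO TM and 11.6 ± 0.860% in EMBRYO CNT, with overlap, and 10.0 ± 0.590% in L4 TM and 7.41 ± 0.258% in L4 CNT, without overlap.

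rde-1, which starts the response to double-stranded RNA in soma and germline, showed small rises whose calls depended on single libraries. It had 23.4, 22.5, 21.6 and 25.2 FPKM in EMBRYO TM, against 20.5, 20.1, 18.1 and 19.7 FPKM in EMBRYO CNT. In L4 TM it had 37.6, 35.1, 38.2 and 43.5 FPKM, against 28.4, 35.4, 28.6 and 27.2 FPKM in L4 CNT. The EMBRYO groups were apart, and the L4 groups overlapped through L4 CNT replicate 2. The log2 fold change was 0.23 ± 0.08 in EMBRYO (adjusted p = 0.0302) and 0.36 ± 0.10 in L4 (adjusted p = 0.0201). The EMBRYO call was lost without EMBRYO CNT replicate 2, 3 or 4 or EMBRYO TM replicate 1 or 2 (adjusted p 0.0508 to 0.0846) and with TPM rescaling (0.16, adjusted p = 0.202). The L4 call was lost without L4 CNT replicate 1, 3 or 4 (adjusted p 0.0592 to 0.0599) and with TPM rescaling (0.35, adjusted p = 0.0825).

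The controls were called different between the stages for 9 of the 10 Argonautes, close to the share over all genes, 83.2%. Compared with L4 CNT, alg-1, alg-2, alg-3 and alg-4 were higher in EMBRYO CNT, and csr-1, prg-1, wago-1, hrde-1 and rde-1 were lower. These 4 and 5 calls among the 10 stand beside 43.2% of all 14221 genes that were higher and 40.1% that were lower. The log2 fold changes were 1.70 ± 0.10 for alg-1 (adjusted p = 1.81e-07), 0.95 ± 0.11 for alg-2 (adjusted p = 2.62e-05), 1.58 ± 0.12 for alg-3 (adjusted p = 7.84e-07) and 1.70 ± 0.12 for alg-4 (adjusted p = 6.90e-07). Among the lower genes, csr-1 stood at -1.25 ± 0.07 (adjusted p = 2.16e-07), prg-1 at -0.81, wago-1 at -0.78, rde-1 at -0.58 and hrde-1 at -0.53. With ergo-1 the controls overlapped, and the log2 fold change was -0.05 ± 0.09 (adjusted p = 0.615). Past both thresholds were alg-1, alg-3 and alg-4 upwards and csr-1 downwards, beside 26.1% and 14.5% of all genes, or 40.6% in either direction. The controls did not overlap for 9 of the 10 genes, beside 78.4% of all genes. Scaling moved this comparison: the median over all genes was 0.08, with TPM rescaling 0.25 and with median-ratio rescaling -0.05. The split past both thresholds was 3713 genes higher and 2060 lower, and 4455 and 1334 with TPM rescaling. The 9 calls kept their directions under both scalings, while ergo-1 turned to 0.14 with TPM rescaling (adjusted p = 0.169).

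Most muscle and neuron markers were higher in EMBRYO CNT than in L4 CNT, as were alg-1 and alg-2, and intestine markers were split. Over all genes, 43.2% were higher and 40.1% lower in EMBRYO CNT. Of 8 body wall muscle genes, 7 were higher and 1 lower in EMBRYO CNT than in L4 CNT, led by the muscle myosin genes myo-3 (4.06) and unc-54 (3.23). Of 11 neuron genes, 9 were higher and 1 lower. Of 8 intestine genes, 4 were higher and 4 lower, with a median log2 fold change of -0.33, and of 9 epidermis genes, 6 were higher and 1 lower. Of 22 germ nucleus genes, 21 were lower and 0 higher, and of 23 oocyte genes, 21 were lower and 0 higher. Summed muscle markers were 1519 to 3045 FPKM in EMBRYO TM and 4253 to 5159 FPKM in EMBRYO CNT, and 1116 to 1419 FPKM in L4 TM and 1187 to 1603 FPKM in L4 CNT. Summed neuron markers were 339 to 360 FPKM in EMBRYO TM and 623 to 675 FPKM in EMBRYO CNT, and 226 to 315 FPKM in L4 TM and 276 to 334 FPKM in L4 CNT. In EMBRYO TM, 5 of 8 muscle genes and 9 of 11 neuron genes fell and 0 rose, beside the lower alg-1 values there. The share of all genes that fell was 27% in EMBRYO TM and 15.8% in L4 TM. In L4 TM 2 of 8 muscle genes and 5 of 9 neuron genes fell. None of these markers was at 0, and their part in the levels of alg-1 and alg-2 was not tested. Of the 8 intestine genes, 5 rose and 1 fell in EMBRYO TM and 5 fell in L4 TM. Of the epidermis genes, 6 of 10 rose and 1 fell in EMBRYO TM and 4 of 9 fell and 1 rose in L4 TM. The share of all genes that rose was 25.7% in EMBRYO TM and 20.3% in L4 TM.

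The order of the 4 groups differed between the genes. For alg-1, alg-3 and alg-4 both EMBRYO groups lay above both L4 groups without overlap, and for alg-2 EMBRYO TM replicate 4 lay within the range of L4 TM. The 2 L4 groups overlapped for these 4 genes. Among the EMBRYO groups, EMBRYO TM was below EMBRYO CNT for alg-1, overlapped with it for alg-2 and was above it for alg-3 and alg-4. For csr-1 the order of the means was L4 TM, L4 CNT, EMBRYO TM and EMBRYO CNT, at 182, 128, 108 and 53.5 FPKM, and no neighbours overlapped. The order was the same for wago-1 and rde-1, with overlap between L4 CNT and EMBRYO TM for wago-1 and between L4 TM and L4 CNT for rde-1. For prg-1 and hrde-1, L4 TM was highest and EMBRYO CNT lowest, each apart from its neighbour, and EMBRYO TM and L4 CNT overlapped. For ergo-1 every pair of neighbours in the order overlapped. The mean of EMBRYO TM lay between those of EMBRYO CNT and L4 CNT for 4 genes, alg-1, csr-1, wago-1 and rde-1, and above both for the other 6.

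The Argonaute pool as a whole was larger under TM. The summed FPKM of the 10 genes was 675.7 ± 106 in EMBRYO TM and 452.4 ± 61.7 in EMBRYO CNT, and 925 ± 18.9 in L4 TM and 643 ± 13.04 in L4 CNT (SD, n = 4). The EMBRYO groups overlapped by a few FPKM, since EMBRYO TM replicate 4 held 527 FPKM and the highest EMBRYO CNT library 531 FPKM. The L4 groups did not overlap. The microRNA pair alg-1 and alg-2 made up 8.41 ± 1.38% of the pool in EMBRYO TM and 14.9 ± 0.552% in EMBRYO CNT, and 3.34 ± 0.0764% in L4 TM and 4.08 ± 0.131% in L4 CNT, without overlap at either stage. The sperm pair alg-3 and alg-4 made up 3.97 ± 0.426% in EMBRYO TM and 2.53 ± 0.124% in EMBRYO CNT, without overlap, and 0.289 ± 0.0553% in L4 TM and 0.355 ± 0.0176% in L4 CNT. The share of csr-1 was 16.1 ± 1.14% in EMBRYO TM and 11.9 ± 0.568% in EMBRYO CNT, without overlap, and 19.6 ± 0.286% in L4 TM and 20.0 ± 0.904% in L4 CNT. Of the others, hrde-1 took 20.0 ± 0.0322% of the pool in L4 TM and 17.4 ± 0.669% in L4 CNT, without overlap. Shares of wago-1 were 25.8 ± 1.51% in EMBRYO TM and 25.05 ± 0.817% in EMBRYO CNT, with overlap. The ratio of csr-1 to alg-1 was 4.36 ± 0.929 in EMBRYO TM and 1.49 ± 0.0570 in EMBRYO CNT, and 15.2 ± 2.10 in L4 TM and 12.4 ± 0.830 in L4 CNT, with overlap at L4 alone.

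**Figure D4:**
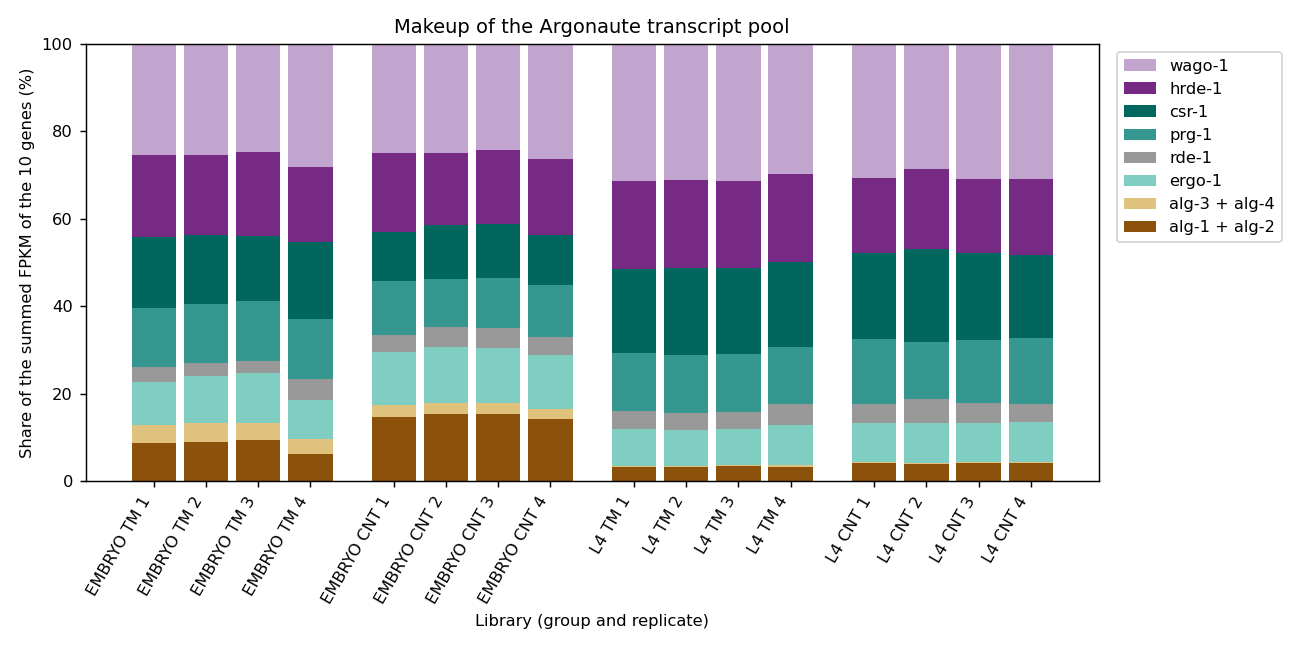
Share of each Argonaute in the summed FPKM of the 10 genes, in percent, with 1 bar per library. The share of alg-1 and alg-2 at the foot of the bars is 8.41% on average in EMBRYO TM, 14.9% in EMBRYO CNT, 3.34% in L4 TM and 4.08% in L4 CNT.

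Several other Argonautes of the worm genome also rose in EMBRYO TM. Of 13 further Argonaute genes, 11 passed the filter there, of which 7 rose and 1 fell, beside 25.7% and 27% of all genes. Both thresholds were passed upwards by 5 of them, beside 5.06% of all genes. The 5 were wago-2 (1.98 ± 0.21), prg-2 (1.63 ± 0.18), sago-2 (1.43 ± 0.11), ppw-2 (1.20 ± 0.18) and wago-4 (1.04 ± 0.26). Of these, wago-2 and wago-4 are by name worm-specific WAGO Argonautes, and prg-2 is the near copy of prg-1, with which reads may be shared. Neither wago-2 nor prg-2 had a gene entry under its name in the WBcel235 annotation, unlike sago-2, ppw-2 and wago-4. Whether wago-2 and prg-2 make a protein was not checked. The levels of wago-2 were 33.0, 39.7, 43.3 and 23.01 FPKM in EMBRYO TM, against 10.7, 7.08, 6.29 and 7.81 FPKM in EMBRYO CNT. Those of prg-2 were 86.2, 103.8, 101 and 70.2 FPKM in EMBRYO TM, against 38.6, 24.8, 23.3 and 28.1 FPKM in EMBRYO CNT. The groups did not overlap for either gene, while those of wago-4 did through EMBRYO TM replicate 4. With TPM rescaling wago-4 stood at 0.98, inside the fold threshold. The gene that fell was nrde-3 (-0.41, adjusted p = 0.0135), a nuclear Argonaute of the soma.

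In L4 TM, 8 of the 10 further Argonautes that passed the filter rose, 1 fell and none passed both thresholds. Over all genes, 20.3% rose, 15.8% fell and 3.79% passed both thresholds in either direction. The largest rise was that of wago-2 (0.54), and the gene that fell was sago-1 (-0.29, adjusted p = 0.00667). The EMBRYO effect exceeded the L4 effect past both thresholds for wago-2 (1.45 ± 0.24), prg-2 (1.27 ± 0.20) and sago-2 (1.19 ± 0.16). The difference was negative for nrde-3 (-0.73, adjusted p = 0.00104), which rose in L4 TM (0.32, adjusted p = 0.0154). Between the controls, prg-2 (-2.44), wago-2 (-2.31), sago-2 (-1.996), ppw-1 (-1.29), wago-4 (-1.23) and ppw-2 (-1.07) were lower in EMBRYO CNT than in L4 CNT past both thresholds. The somatic Argonautes nrde-3 (0.82) and sago-1 (0.69) and also wago-10 (1.63) were higher there. The ppw-2 value was -0.89 with TPM rescaling. The genes wago-5 and wago-11 stayed under the filter in all comparisons, at 0.0550 FPKM or less and 0.690 FPKM or less.

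The genes that work with Argonautes were counted by list, beside 25.7% of all genes that rose and 27% that fell in EMBRYO TM and 20.3% and 15.8% in L4 TM. For piRNA production, 10 of 12 genes rose in EMBRYO TM and 3 in L4 TM, with 0 falling in either. Those of L4 TM were prde-1, snpc-4 and tofu-2. The largest EMBRYO changes were those of parn-1 (1.04), which trims piRNA ends, and prde-1 (1.03), which is needed to transcribe piRNA precursors. For germ granules, the bodies beside the germ nucleus where WAGO-1 and CSR-1 gather, 8 of 12 genes rose in EMBRYO TM and 10 in L4 TM, with 0 falling. The Vasa-like helicase genes glh-1 (1.69) and glh-4 (1.009) led in EMBRYO TM as the 2 past both thresholds, beside 5 without EMBRYO TM replicate 4 and 1 with TPM rescaling. The glh-1 effect differed between the stages (1.08 ± 0.32, adjusted p = 0.0182). That difference was within the fold threshold without L4 TM replicate 4. For nuclear and inherited silencing, 10 of 13 genes rose and 1 fell in EMBRYO TM (hpl-1, a heterochromatin protein gene), and 8 rose and 0 fell in L4 TM.

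For 22G RNA makers and mutator proteins, 8 of 16 genes rose in EMBRYO TM and 7 in L4 TM, with 0 falling, and 4 rose in L4 TM with TPM rescaling. For the 26G RNA and ERI complex, 4 of 8 genes rose in each comparison (rrf-3, eri-3, rde-4 and drh-3 in both), and 1 fell in EMBRYO TM (eri-6). For microRNA cofactors, 6 of 10 genes rose and 1 fell (ain-1, a binding partner of ALG-1) in EMBRYO TM, and 8 rose and 0 fell in L4 TM. For systemic RNAi, 4 of 8 genes rose (sid-1, rsd-2, rsd-6 and drh-1) and 2 fell (sid-5 and rsd-3) in EMBRYO TM, 2 rose and 2 fell there with TPM rescaling, and 3 rose (rsd-2, rsd-6 and drh-1) and 2 fell (sid-2 and sid-5) in L4 TM. The median log2 fold changes of these 7 lists ran from 0.23 to 0.63 in EMBRYO TM and from 0.12 to 0.49 in L4 TM, above the medians over all genes of -0.03 and 0.05. In the test of the difference, 6 of 12 piRNA production genes had a positive call and 0 a negative one, beside 14.8% and 14.4% of all genes. Among germ granule genes the call was positive for glh-1 and pgl-1 and negative for meg-2, meg-3 and meg-4, and 4 were positive without EMBRYO TM replicate 4. In each of the other 5 lists at most 1 gene was called in a direction, while with TPM rescaling 3 microRNA cofactors and 2 nuclear silencing genes had negative calls.

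Between the controls, most of these genes were lower in EMBRYO CNT than in L4 CNT. This comparison shares its libraries with both TM comparisons, so its values are set beside theirs and not read against them. This held for 12 of 12 piRNA production genes, 11 of 12 germ granule genes, 10 of 13 nuclear silencing genes, 13 of 16 genes of 22G RNA makers, 7 of 8 of the 26G RNA list, 7 of 10 microRNA cofactors and 5 of 8 systemic RNAi genes, beside 40.1% of all genes. Those past both thresholds included erh-2 (-1.78), parn-1 (-1.70) and tofu-2 (-1.66) of piRNA production, glh-1 (-1.57), pgl-1 (-1.23) and mip-1 (-1.15) of the germ granule, and drh-3 (-1.13) of the 26G RNA list. Others were mut-2 (-1.20) and mut-14 (-1.05) of the mutator proteins, heri-1 (-1.13) of nuclear silencing, sid-1 (-1.31), a double-stranded RNA channel, and pash-1 (-1.54) and cgh-1 (-1.35) of the microRNA cofactors. The opposite direction was found for ain-1 (1.65), a partner gene of alg-1, and for rsd-3 (1.43). How many genes passed the fold threshold downwards depended on the scaling: 5 germ granule genes, and 2 with TPM rescaling, 2 genes of 22G RNA makers, with 6 under median-ratio and 1 under TPM rescaling, and 1 of the 26G RNA list, with 4 and 0. Of the systemic RNAi genes, 3 were lower with TPM rescaling.

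**Figure D5:**
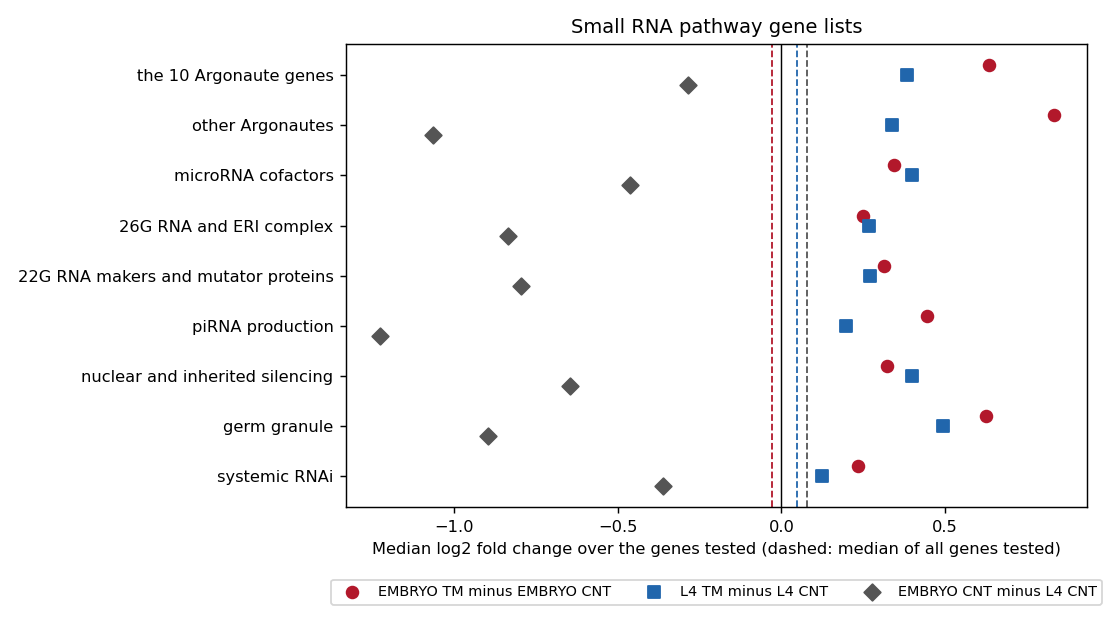
Median log2 fold change of FPKM + 1 over the tested genes of each small RNA list, in 3 comparisons, with dashed lines at the medians of all genes tested. In EMBRYO TM and L4 TM every list lies to the right of 0, and in EMBRYO CNT minus L4 CNT every list lies to the left, from -0.29 for the 10 Argonautes to -1.23 for piRNA production.

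The genes whose log2 levels followed each Argonaute most closely over the 16 libraries were read out among 13856 genes as a description. The 16 points come in groups of 4 libraries, so these correlations share the differences between groups. Those nearest to alg-1 were unc-68 (Pearson r = 0.993), the ryanodine receptor gene of muscle, lin-59 and eef-1A.2, and those nearest to alg-2 were gpb-1 (r = 0.993), let-526 and set-16. The sperm Argonautes shared the neighbour Y113G7C.1 (r = 0.990 with alg-3 and 0.996 with alg-4), and B0205.10 was nearest to alg-3 (r = 0.994). Those nearest to csr-1 were glp-4 (r = 0.995), tomm-70 and nfx-1. The nearest genes were herd-1 for wago-1 (r = 0.994), cogc-4 for prg-1 (r = 0.993), klp-18 for hrde-1 (r = 0.989) and tbcd-1 for rde-1 (r = 0.996). For ergo-1 the nearest gene was gfat-1 (r = 0.988), and the next, mcm-7, had r = 0.970.

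The 10 genes are protein-coding and lie on 6 chromosomes, with positions given as the deposited table has them, for a genome build that the sources used here do not name. They are alg-1 (F48F7.1, chromosome X, 13949142 to 13956256), alg-2 (T07D3.7, II, 873176 to 878954), alg-3 (T22B3.2, IV, 11704251 to 11708237), ergo-1 (R09A1.1, V, 1008801 to 1018358) and csr-1 (F20D12.1, IV, 7957580 to 7962121). The others are prg-1 (D2030.6, I, 7585324 to 7588367), wago-1 (R06C7.1, I, 7235384 to 7238794), hrde-1 (C16C10.3, III, 4172337 to 4176161) and rde-1 (K08H10.7, V, 9987915 to 9991642). For alg-4 (ZK757.3, III) the table gives 9890729 to 9891355, a span shorter than its own gene length of 3474 bases, so that position was not used further.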

How the data were processed

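Poly(A) RNA from whole N2 worms was sequenced in 16 libraries, 4 in each of 4 groups. The authors aligned reads with HISAT2 2.0.5, counted them per gene with featureCounts 1.5.0-p3 and deposited FPKM for 46589 genes, and their processing notes also name StringTie 1.3.3b, DESeq2 and edgeR 3.22.5. The genome build is not named. Another 4 columns of group means, headed L1 and D1 where the labels give embryo and L4 stage, were not used. FPKM times gene length gave whole reads within 0.01 read for 100% of values, and totals per library followed from these. Symbols came from WBcel235 for 43469 genes and from RefSeq for 1859.

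Values were tested as log2(FPKM + 1) with limma 3.58.1 (R 4.3.3; empirical Bayes with a mean-variance trend), two-sided, for genes with a mean of at least 1 FPKM in the libraries compared. P-values were adjusted by Benjamini-Hochberg over all genes tested. Folds are on the log2(FPKM + 1) scale, which understates changes of low genes. Each TM comparison and the control comparison used 8 libraries, and the difference of effects used 16. A call is an adjusted p under 0.05, and the study's fold threshold is an absolute log2 fold change over 1. The test was tried on simulated data first.

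The 10 genes and the 15 other lists (231 of 236 list genes matched) were chosen with earlier results of these data known. By rule, the text names the 10 genes, other Argonautes past both thresholds, up to 3 genes per list and comparison past both thresholds without overlap, and the 3 genes most like each of the 10. Genes behind some counts of 5 or fewer were named after their values were seen, and 1 list gene is not reported here by name. Alternatives were other pseudocounts, filters, scalings and tests, a replicate block, protein-coding genes alone and leaving out each library. List counts were recomputed without EMBRYO TM or L4 TM replicate 4 and with other scalings, chosen after the data were seen. Tables and plots used Python 3.11.15 with pandas 2.3.3, numpy 2.4.6 and matplotlib 3.10.9.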

Additional observations from a re-analysis of the deposited data

Results flagged for a closer look

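In 5 of the 40 sets of 4 libraries, 1 library lay far from the other 3 by Dixon's criterion at the 95% level, which chance gives in about 1 of 20. In L4 CNT replicate 2, alg-2 was lowest at 12.6 FPKM (the others 16.7 to 17.1), csr-1 highest at 134 FPKM (126 to 127) and rde-1 highest at 35.4 FPKM (27.2 to 28.6). The ergo-1 value of L4 CNT replicate 4 was highest at 60.2 FPKM (56.95 to 57.4), and the alg-3 value of EMBRYO CNT replicate 1 was highest at 6.81 FPKM (4.91 to 5.07).

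The effect of TM in EMBRYO differed from that in L4, in a test of the difference with limma, for alg-1 (-0.69), alg-3 (0.97), alg-4 (1.00) and csr-1 (0.50).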

How the results depend on the processing

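Of the counts of the 10 genes over all settings that keep every library, 80 stayed within 1.5 times and 6 moved. The number past both thresholds in EMBRYO, 2, was 0 with a pseudocount of 5 and 1 with TPM rescaling, and 1 to 3 with 1 library left out. Between the controls it was 4, and 2 with a pseudocount of 5 and 2 with a filter of 5 FPKM, which left alg-3 and alg-4 untested. For the difference of effects it was 0, and 1 with a pseudocount of 0.1 and 1 with voom, and 0 to 2 with 1 library left out.

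Values near 0 changed sign. For alg-4 in L4 the value was -0.0028 with median-ratio rescaling and -0.0089 with voom, and -0.032 to 0.049 with 1 library left out. For ergo-1 between the controls it was 0.14 with TPM rescaling and -0.12 to 0.022 with 1 library left out. For wago-1 in the difference of effects it was -0.0021 with TPM rescaling and -0.028 to 0.13 with 1 library left out. Leaving out 1 library gave -0.18 to 0.23 for alg-2 in EMBRYO and, in the difference of effects, -0.29 to 0.0017 for ergo-1 and -0.15 to 0.086 for hrde-1. The cause was not tested for any of these.

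Same-numbered replicates did not deviate together (r from -0.23 to 0.09 in EMBRYO and -0.31 to 0.20 in L4). With so few libraries this cannot show whether the numbers pair samples, and the labels do not say. The main fits used no pairing. With a replicate block 6 of the 10 were called in EMBRYO, 5 in L4, 9 between the controls and 3 in the difference of effects. The block lost rde-1 in EMBRYO (adjusted p = 0.0583) and in L4 (0.0826) and alg-1 in the difference (0.0549), and called 1324 genes higher and 1363 lower in L4 over all genes, against 2428 and 1895.

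Over all genes, the counts past both thresholds moved by over 1.5 times with a pseudocount of 5: 427 higher and 440 lower in EMBRYO (main 756 and 1136), 27 and 180 in L4 (70 and 383), 1395 and 1225 between the controls (3713 and 2060) and 515 and 237 in the difference (901 and 585). In L4 they were 111 and 579 with a pseudocount of 0.1 and 123 and 645 with voom. A filter of 5 FPKM gave 1649 and 1849 between the controls and 705 and 277 in the difference.

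The L4 values of alg-3 and alg-4 rest on 46 to 343 reads a library.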
